A study of Mus musculus with 25 samples.

Results

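The genes described here encode the secreted and membrane proteins of the perineuronal matrix of the brain. They are the lecticans versican (Vcan), neurocan (Ncan), brevican (Bcan) and aggrecan (Acan), the membrane proteoglycans Cspg5 and Ptprz1, the tenascins Tnc and Tnr, and the link proteins Hapln1 and Hapln4. They were chosen by name, with earlier results of these data known, and are 10 of the 36528 Entrez gene IDs counted. All 10 were found. RNA was sequenced from NeuN+ neurons and Gfap+ astrocytes sorted from brains of mice at 6 months of age. The mice carried human MAPT, the tau gene, with the P301S substitution (hMAPT-P301S), or were littermates without the transgene (non-Tg). There were 5 P301S astrocyte, 6 non-Tg astrocyte, 6 P301S neuron and 8 non-Tg neuron libraries. Cd11b+ myeloid cells of the same experiment were not analysed here. The labels name neither the promoter that drives the transgene nor the brain region. Whether the RNA of a library came from 1 mouse or several is not stated, so the p-values reflect only how far these samples vary, part of which may be technical. Nor do they tie neuron to astrocyte libraries, which were treated as independent.

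Perineuronal nets are lattices of extracellular matrix that wrap the cell body and proximal dendrites of certain neurons, above all inhibitory neurons that contain parvalbumin. Lecticans carry chondroitin sulfate chains and bind hyaluronan, link proteins of the Hapln family fasten that bond, and tenascins join lecticans to each other. The nets form as critical periods close, restrict synaptic rearrangement in the adult, and are built from proteins that both glia and neurons supply.

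Libraries held 1245964 to 4453555 counts, and a floor of 3 counts stood for 0.674 to 2.41 counts in 1000000 of the library's own total, before any scaling, covering counting error only. Levels below are in CPM, counts in 1000000 after TMM scaling of the totals, unless stated. Rbfox3, which encodes NeuN, ran from 51.9 to 119 CPM in neuron libraries and from 0.333 to 12.7 CPM in astrocyte libraries. Aqp4, the astrocyte water channel, ran from 424 to 1289 CPM in astrocyte libraries and from 2.22 to 21.2 CPM in neuron libraries. Gfap, the marker of the astrocyte sort, ran from 88.0 to 378 CPM in non-Tg and from 762 to 1046 CPM in P301S astrocyte libraries. In neuron libraries it ran from 0.54 to 13.6 CPM. Whether the sort took the same astrocytes in both genotypes was not tested. The 12 neuron markers summed to 541 to 1119 CPM in astrocyte libraries against 2341 to 3176 in neuron libraries, and the 15 astrocyte markers to 283 to 655 CPM in neuron libraries against 15047 to 30689 in astrocyte libraries. The 9 markers of oligodendrocyte precursors, cells that also express several of the matrix genes, summed to 342, 327, 474, 38.3 and 222 CPM in P301S astrocyte libraries 1 to 5 and to 78.4 to 172 CPM in the non-Tg ones. Olig2 made up much of these sums, with medians of 284 CPM in P301S and 68.9 CPM in non-Tg astrocytes. Pdgfra had medians of 2.74 and 5.06 CPM in the same order, with highest values of 54.3 and 11.3 CPM. Cspg4 had medians of 7.48 and 4.15 CPM, with highest values of 32.1 and 4.96 CPM. Whether the P301S astrocyte libraries held more precursor cells was not tested. Non-Tg neuron libraries 5 and 8 bear, in the titles the submitters gave, sample identifiers outside the run of the other 23 libraries and stood apart for several of the matrix genes, as given beside those genes. In RNA from sorted pools, fewer cells of a type and less RNA per cell cannot be told apart.

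Astrocytes and neurons held different mixtures of these transcripts. The authors' size-factor-adjusted RPKM divides by gene length, so it was used to set 1 gene against another. Summed over the 10 genes it was 113 ± 15.9 (SD, n = 6) in non-Tg astrocytes and 121 ± 17.5 (n = 5) in P301S astrocytes, against 16.7 ± 3.29 (n = 8) in non-Tg neurons and 18.6 ± 2.59 (n = 6) in P301S neurons. In non-Tg astrocytes Ptprz1 made up 39.6% ± 3.44 of this sum, Bcan 21.4% ± 3.9, Ncan 21.3% ± 1.35 and Cspg5 7.47% ± 1.05. In P301S astrocytes the shares were 42.2% ± 4.95, 24.8% ± 5.98, 16.8% ± 2.37 and 9.48% ± 3.41 in the same order. In neurons Tnr led, with 41.0% ± 6.77 in non-Tg and 42.0% ± 4.65 in P301S libraries, followed by Ncan with 22.8% ± 3.2 and 20.8% ± 3.48 and Ptprz1 with 17.7% ± 2.92 and 17.2% ± 3.86. Tnr took 1.43% ± 0.575 of the sum in non-Tg astrocytes, so the most abundant transcript of the neuronal mixture was a minor one in astrocytes.

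**Figure D1:**
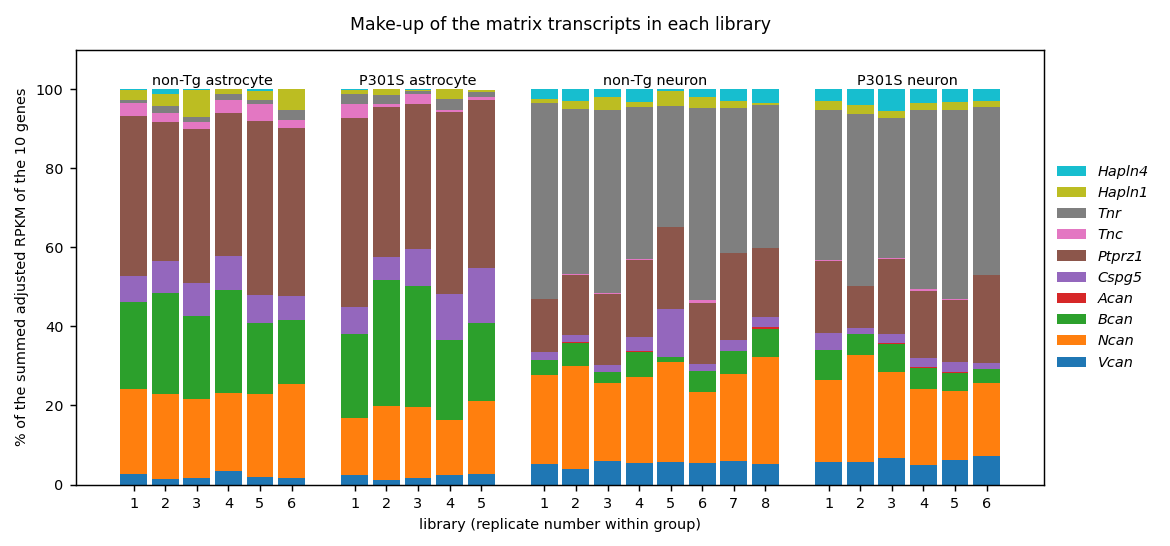
Share of each gene (% of the summed size-factor-adjusted RPKM of the 10 genes, vertical axis) in each of the 25 libraries (horizontal axis, replicate number within group). Ptprz1, Bcan and Ncan fill most of every astrocyte bar, and Tnr takes 30.4 to 49.4% of the non-Tg neuron bars.

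The order of the levels was steady at the top and loose in the middle. In non-Tg astrocytes Ptprz1, at 44.9 ± 9.47 RPKM, was above Bcan in 6 of 6 libraries. Bcan and Ncan, each at a mean of 24.0 RPKM, did not differ beyond their spread, with Bcan the higher in 4 of 6 libraries. Both were above Cspg5 (8.38 ± 1.34 RPKM), which was above Hapln1 (3.81 ± 1.91), and neither step had overlapping ranges. Hapln1, Tnc (3.32 ± 1.59), Vcan (2.36 ± 0.808) and Tnr (1.59 ± 0.595) formed a run of neighbours with overlapping ranges, and Hapln4 and Acan came last. In P301S astrocytes the first 4 places were the same, while Hapln1 stood below Vcan, Tnr and Tnc at 1.36 ± 1.09 RPKM, with ranges that overlapped. In non-Tg neurons Tnr (7.0 ± 2.41 RPKM) was above Ncan (3.73 ± 0.508) in 8 of 8 libraries, and Ncan was above Ptprz1 (2.9 ± 0.476) in 8 of 8, although the ranges of both pairs overlapped. Vcan, Bcan, Cspg5, Hapln4 and Hapln1 followed, each with a range overlapping that of its neighbour. The first 5 genes came in the same order in P301S neurons, where Vcan was above Bcan in only 3 of 6 libraries.

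**Figure D2:**
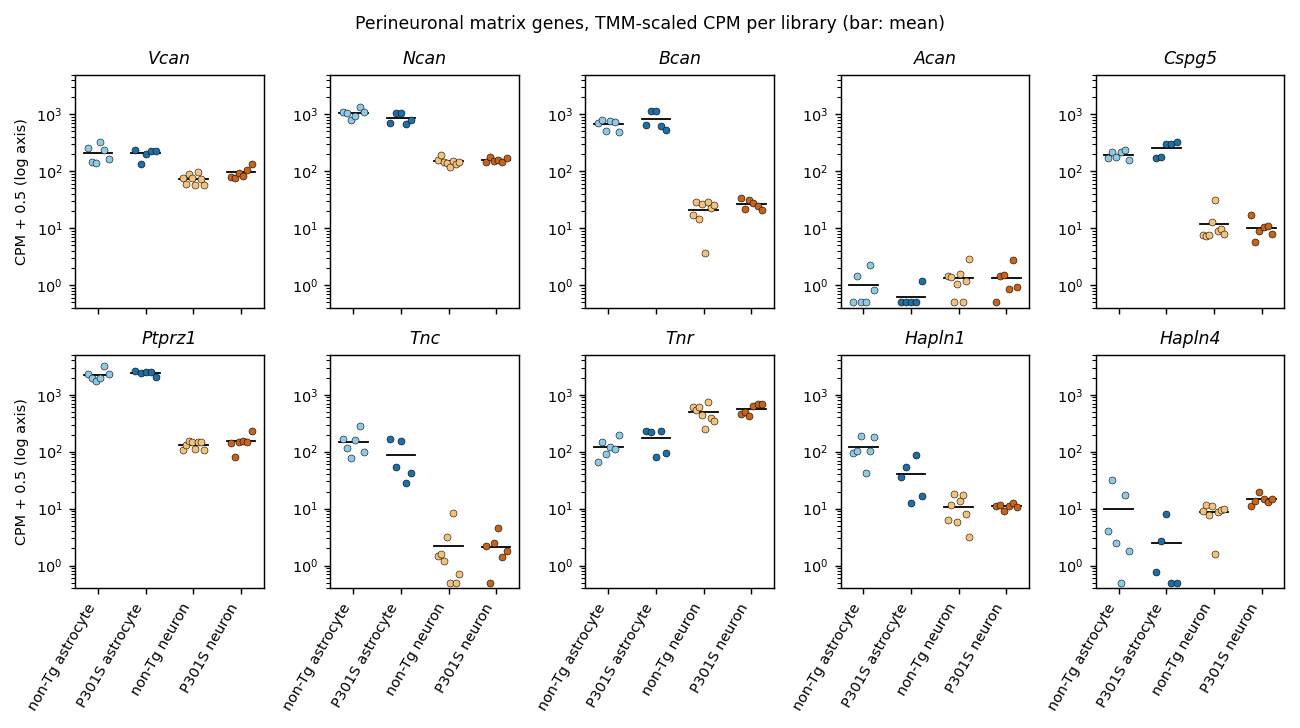
CPM (scaled by TMM, plus 0.5, logarithmic vertical axis) of each gene in every library, by group; points are libraries and bars are group means. Astrocyte and neuron points lie far apart for Bcan, Cspg5, Ptprz1 and Tnc, Tnr is higher in neurons, and Acan is at 2.42 CPM or less in all 4 groups.

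Between the cell types, 7 of the 9 genes that could be tested were lower in neurons in both genotypes. In non-Tg libraries 1 of the 9, Tnr, was higher in neurons and 7 were lower, with edgeR's quasi-likelihood test and Benjamini-Hochberg adjustment. Of the 14197 genes in that comparison 21.8% were called higher and 25.1% lower. In P301S libraries 2 of the 9 were higher and 7 lower, where 23.2% of all genes were called higher and 29.0% lower. The median log2 difference (neurons minus astrocytes) was -3.64 over the 9 genes in non-Tg and -2.56 in P301S, against -0.11 and -0.21 over all genes tested. With RLE size factors the medians over all genes were 0.08 and -0.08 in place of -0.11 and -0.21. The zero of this scale thus shifts by the distance between those values. Tnr in non-Tg, for instance, went from 1.96 to 2.15. The members' calls were the same. The 9 tested genes are those with enough counts in at least as many libraries as the smallest group holds, and Acan was left out by that filter. Tnc did not pass it within neurons alone, nor Hapln4 within astrocytes alone. Each of these 2 thus entered mainly through its counts in the other cell type.

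Among the lecticans, Bcan, which is cleaved at the synapse and joins nets to the cell surface, differed most between the cell types. Its CPM ran from 487 through a median of 708 to 790.5 in non-Tg astrocytes and from 3.24 through 23.2 to 28.9 in non-Tg neurons. It was 33.3-fold lower in neurons (log2 -5.06, SE 0.29, edgeR adjusted p = 7.83e-16), and in P301S libraries 33.6-fold lower (log2 -5.07, SE 0.33, adjusted p = 3.73e-14). The lowest value, 3.24 CPM, was in non-Tg neuron library 5. Every other neuron library lay at 14.2 CPM or more, and no neuron library came near the astrocyte range. The astrocyte markers as a list had a median log2 difference of -6.49 in non-Tg and -5.91 in P301S, with 15 of 15 lower in neurons, and the part of carried-over astrocyte RNA in the low neuronal levels of Bcan and the other genes was not tested.

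Ncan, a secreted lectican of the juvenile and adult brain, was also lower in neurons. Non-Tg astrocyte libraries ran from 784 through 1067 to 1326 CPM and non-Tg neuron libraries from 119.8 through 147 to 195 CPM. It was 7.28-fold lower in non-Tg neurons (log2 -2.86, SE 0.15, adjusted p = 1.99e-16) and 5.9-fold lower in P301S neurons (log2 -2.56, SE 0.17, adjusted p = 1.07e-13). Vcan, whose large splice forms are made by glia and oligodendrocyte precursors, had the smallest difference of the genes that were lower. It ran from 139 through 202 to 324 CPM in non-Tg astrocytes and from 56.1 through 74.0 to 97.4 CPM in non-Tg neurons, a 3.03-fold difference (log2 -1.6, SE 0.22, adjusted p = 1.93e-07). In P301S libraries Vcan was 2.33-fold lower in neurons (log2 -1.22, SE 0.24, adjusted p = 9.11e-05). There the ranges overlapped, because P301S neuron library 6, at 136 CPM, passed P301S astrocyte library 2, at 132 CPM.

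Acan, the lectican most used as a marker of perineuronal nets, was low in every library, at 2.42 CPM or less. Its counts per library ran from 0 to 6 in non-Tg astrocytes, from 0 to 2 in P301S astrocytes, from 0 to 12 in non-Tg neurons and from 0 to 5 in P301S neurons. Summed over the libraries of a group these were 10, 2, 22 and 11 counts in that order, or 0.555, 0.12, 1.24 and 0.935 in 1000000 of the summed totals without TMM scaling. Acan passed the count filter of no comparison. With no filter it was tested in all 5 and called in none: the log2 difference between neurons and astrocytes was 0.68 in non-Tg (adjusted p = 0.637) and 2.24 in P301S (adjusted p = 0.159), and that between genotypes -1.58 in astrocytes (adjusted p = 0.577) and -0.2 in neurons (adjusted p = 0.949). The genotype effect in astrocytes minus that in neurons was -1.56 (adjusted p = 0.761). Pvalb, the gene for parvalbumin, was at most 0.557 CPM in any library. The 9 markers of inhibitory neurons (Gad1, Gad2, Pvalb, Slc32a1, Lhx6, Kcnc1, Kcnc2, Erbb4 and Sst) summed to 187 to 436 CPM in neuron libraries and to 21.2 to 93.8 CPM in astrocyte libraries. With Pvalb and Acan this low, the sum does not single out net-bearing neurons.

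The membrane proteoglycans were also astrocytic. Ptprz1, a receptor tyrosine phosphatase whose extracellular part carries chondroitin sulfate and binds tenascins and contactins, ran from 1721 through 2120.4 to 3143 CPM in non-Tg astrocytes and from 107 through 138 to 151 CPM in non-Tg neurons. It was 17.6-fold lower in neurons (log2 -4.14, SE 0.18, adjusted p = 1.97e-18), and 17.2-fold lower in P301S (log2 -4.11, SE 0.21, adjusted p = 1.47e-16). Cspg5, or neuroglycan C, a transmembrane proteoglycan with an EGF-like domain, ran from 157 through 197 to 239 CPM in non-Tg astrocytes. In non-Tg neurons it ran from 6.8 through 7.91 to 30.8 CPM, and the highest value was that of library 5, with the others at 12.4 CPM or less. The difference was 18.5-fold in non-Tg (log2 -4.21, SE 0.31, adjusted p = 5.72e-13) and 28.6-fold in P301S (log2 -4.84, SE 0.37, adjusted p = 1.54e-12). Without non-Tg neuron library 5 the non-Tg log2 difference of Cspg5 was -4.58.

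The tenascins went in opposite directions. Tnc, a many-armed glycoprotein of developing and reactive tissue, ran from 77.4 through 137 to 281 CPM in non-Tg astrocytes and from 0 through 0.831 to 7.79 CPM in non-Tg neurons, where 2 of 8 libraries held no count and all 8 together held 28. It was 96.0-fold lower in non-Tg neurons (log2 -6.58, SE 0.61, adjusted p = 8.04e-11) and 53.0-fold lower in P301S neurons (log2 -5.73, SE 0.68, adjusted p = 1.65e-08). The neuronal levels of Tnc rest on few counts. Non-Tg neuron library 6, with 14 of the 28 counts, moved the non-Tg log2 difference to -7.52 when left out. With the level of oligodendrocyte precursor markers as a covariate Tnc was at -4.71 in non-Tg (adjusted p = 1.38e-05) and -3.46 in P301S (adjusted p = 0.000763). These markers summed to 38.3 to 474 CPM in astrocyte libraries and to 4.28 to 18.6 CPM in neuron libraries. The covariate is thus tied to cell type, and between cell types the 2 cannot be told apart.

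Tnr, the tenascin of the adult central nervous system, which crosslinks lecticans within nets, was the gene of the set that was higher in neurons in both genotypes. It ran from 64.8 through 114 to 197 CPM in non-Tg astrocytes and from 253 through 496 to 734 CPM in non-Tg neurons. The P301S astrocyte libraries had 231, 223, 80.9, 226 and 93.9 CPM, and the P301S neuron libraries ran from 425 through 571 to 693 CPM. It was 3.89-fold higher in neurons in non-Tg (log2 1.96, SE 0.27, adjusted p = 2.55e-07) and 3.15-fold higher in P301S (log2 1.65, SE 0.3, adjusted p = 1.94e-05). Every neuron library was above every astrocyte library. The 2 lowest non-Tg neuron libraries, 5 and 8, had 253 and 342 CPM, and without them the non-Tg log2 difference was 2.15 (adjusted p = 7.73e-08). The neuron markers as a list had a median log2 difference of 2.49 in non-Tg, with 10 of 12 higher in neurons, and 1.9 in P301S, with 9 of 12 higher. With the level of oligodendrocyte precursor markers as a covariate the P301S difference of Tnr was 1.2 (adjusted p = 0.0507), past the threshold no longer, and the non-Tg difference was 1.49 (adjusted p = 0.00942). That covariate is tied to cell type, as given for Tnc, and with it the SE in P301S rose from 0.3 to 0.489.

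The link proteins also parted. Hapln1, which is needed for nets to condense around neurons, ran from 41.1 through 103 to 191 CPM in non-Tg astrocytes and from 2.63 through 9.42 to 17.8 CPM in non-Tg neurons, 12.5-fold lower (log2 -3.64, SE 0.42, adjusted p = 9.12e-09). In P301S libraries the difference was 4.08-fold (log2 -2.03, SE 0.46, adjusted p = 0.000433). There the ranges met, since P301S astrocyte library 3, at 12 CPM, lay below the highest P301S neuron library, at 12.3 CPM. With the precursor marker covariate, which is tied to cell type, Hapln1 was at -5.09 in non-Tg (adjusted p = 3.75e-08) and -3.36 in P301S (adjusted p = 2.54e-05). Hapln4, the link protein that partners brevican at inhibitory synapses, was called in P301S and not in non-Tg; the test of that difference, given below with the genotypes, did not pass. It had 0.288, 2.21, 7.51, 0 and 0 CPM in P301S astrocyte libraries 1 to 5 and ran from 10.7 through 13.7 to 19.1 CPM in P301S neurons, 6.12-fold higher (log2 2.61, SE 0.89, adjusted p = 0.0144). In non-Tg it ran from 0 through 2.76 to 31.7 CPM in astrocytes and from 1.08 through 8.84 to 11.1 CPM in neurons (log2 -0.21, SE 0.71, adjusted p = 0.839). The mean of the non-Tg astrocytes, 9.18 ± 12.6 CPM, rested on libraries 2 and 5, at 31.7 and 16.6 CPM, and the non-Tg log2 difference was 0.77 without library 2. Without P301S astrocyte library 3 the P301S difference of Hapln4 was 4.2, with limma voom 4.31 and with the precursor marker covariate 6.64 (SE 1.8, adjusted p = 0.00387).

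**Figure D3:**
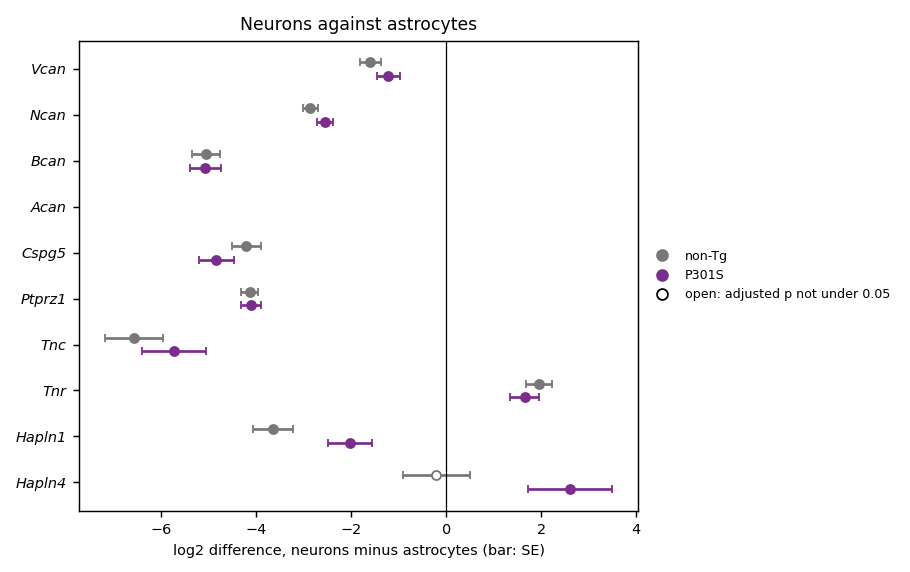
Log2 difference (neurons minus astrocytes, horizontal axis) with its SE for each gene in non-Tg (grey) and P301S (purple); open circles did not pass an adjusted p of 0.05 and Acan was not tested. Tnr alone lies right of 0 in both genotypes, and the non-Tg and P301S points lie farthest apart for Hapln4 and Hapln1.

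Windows of 250 bases before a RefSeq start site (GRCm38.p6) were at hand for 8 of the 10 genes. For the 4 shown that site lies within the span of the gene record given below, so the windows overlap the record. Shown are the gene with the highest level in astrocytes (Ptprz1), the one higher in neurons (Tnr), and the neighbours Hapln1 and Vcan, each 5′ to 3′ on the gene's strand with CpG dinucleotides in capitals. The windows are chr6:22875252-22875501 (+) for Ptprz1, chr1:159523519-159523768 (+) for Tnr, chr13:89540386-89540635 (+) for Hapln1 and chr13:89742513-89742762 (-) for Vcan.
Ptprz1: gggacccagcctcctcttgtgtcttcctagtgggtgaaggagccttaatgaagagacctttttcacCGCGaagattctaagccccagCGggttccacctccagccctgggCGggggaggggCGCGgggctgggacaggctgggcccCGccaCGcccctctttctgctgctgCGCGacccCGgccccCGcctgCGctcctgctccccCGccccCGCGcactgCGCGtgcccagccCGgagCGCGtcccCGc
Tnr: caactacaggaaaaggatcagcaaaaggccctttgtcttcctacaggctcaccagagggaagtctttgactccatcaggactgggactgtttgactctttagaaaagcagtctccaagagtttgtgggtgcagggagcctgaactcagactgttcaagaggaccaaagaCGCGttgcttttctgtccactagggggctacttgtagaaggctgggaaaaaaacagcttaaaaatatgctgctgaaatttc
Hapln1: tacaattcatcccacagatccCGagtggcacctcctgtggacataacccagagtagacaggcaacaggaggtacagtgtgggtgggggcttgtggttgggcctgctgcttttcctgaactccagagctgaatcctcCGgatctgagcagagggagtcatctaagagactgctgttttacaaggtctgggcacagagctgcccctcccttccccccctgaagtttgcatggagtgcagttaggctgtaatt
Vcan: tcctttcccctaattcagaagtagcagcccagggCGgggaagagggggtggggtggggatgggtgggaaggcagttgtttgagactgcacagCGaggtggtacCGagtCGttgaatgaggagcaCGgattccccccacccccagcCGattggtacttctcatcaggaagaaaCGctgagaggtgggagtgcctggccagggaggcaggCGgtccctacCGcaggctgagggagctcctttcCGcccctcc
The Ptprz1 window held 22 CpG and 71.6% G or C, that of Vcan 10 and 62.4%, that of Hapln1 2 and 54.4% and that of Tnr 2 and 46.8%. Over all 32851 such windows the medians were 6 CpG and 52.4%.

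Several of the genes lie beside a link protein gene. On GRCm38.p6 Hapln1 (chr13:89540529-89611832) and Vcan (chr13:89655309-89743027) are 43.5 kb apart, and Hapln4 (chr8:70083529-70090862) and Ncan (chr8:70093085-70120863) 2.2 kb apart. Bcan (chr3:87987531-88002175) lies 18.4 kb from Hapln2, and Acan (chr7:79053226-79115099) 1.9 kb from Hapln3. The neighbours Ncan and Hapln4 differed in their values, since Ncan was 7.28-fold lower in non-Tg neurons while the log2 difference of Hapln4 was -0.21. Cspg5 is at chr9:110243783-110262576, Ptprz1 at chr6:22875315-23052916, Tnc at chr4:63959785-64047015 and Tnr at chr1:159523729-159931729.

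Within astrocytes, no gene of the set passed the test between P301S and non-Tg. Of the 8 tested, 0 were called by edgeR's quasi-likelihood test, 0 by DESeq2 and 0 by limma voom, while 0.544% of the 12130 genes tested were called by edgeR. At an unadjusted p under 0.05 there was 1 of 8, Hapln1, against 13.4% of all genes. The CPM ranges of the groups overlapped for 8 of 8, and 2.09% of all genes tested had ranges that did not. The median log2 difference of the 8 was 0.07, against 0.13 over all genes. P301S astrocyte libraries held 13894 to 18997 genes with a count, against 17417 to 21050 in non-Tg astrocyte libraries. Pairs of P301S astrocyte libraries also lay farther apart, at a chi-square per degree of freedom of 33.65 to 61.54, against 9.39 to 24.43 for non-Tg pairs.

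Hapln1 had the widest difference of the 8. P301S astrocyte libraries 1 to 5 held 35.1, 54.1, 12, 86.8 and 16.3 CPM, and the non-Tg astrocyte libraries 93.5, 104, 191, 41.1, 102 and 178 CPM. The means were 40.9 ± 30.7 (n = 5) and 118 ± 56.4 CPM (n = 6), 2.86-fold lower in P301S (log2 -1.52, SE 0.49, edgeR adjusted p = 0.168). All 5 P301S values lay below the non-Tg mean, and the ranges overlapped, since P301S libraries 2 and 4 lay above non-Tg library 4. The log2 difference stayed between -2.02 and -1.28 when each library was left out in turn. The call did depend on the setting: without P301S astrocyte library 4 the adjusted p was 0.0487 (log2 -2.02), with all 25 libraries in 1 fit 0.0279 (log2 -1.51), and with no filter on low counts 0.0128 (log2 -1.57). It was 0.0624 with DESeq2 and 0.0704 with limma voom. Among the 25 libraries, P301S astrocyte library 4 held the fewest genes with a count, 13894. Its 127 Hapln1 counts in a total of 2497847 became 86.8 CPM after TMM scaling. The oligodendrocyte precursor markers, whose sums are given above, had a median log2 difference of 1.25 (0 of 5 tested called), and with their level as a covariate Hapln1 was at -1.46 (adjusted p = 0.0921).

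**Figure D4:**
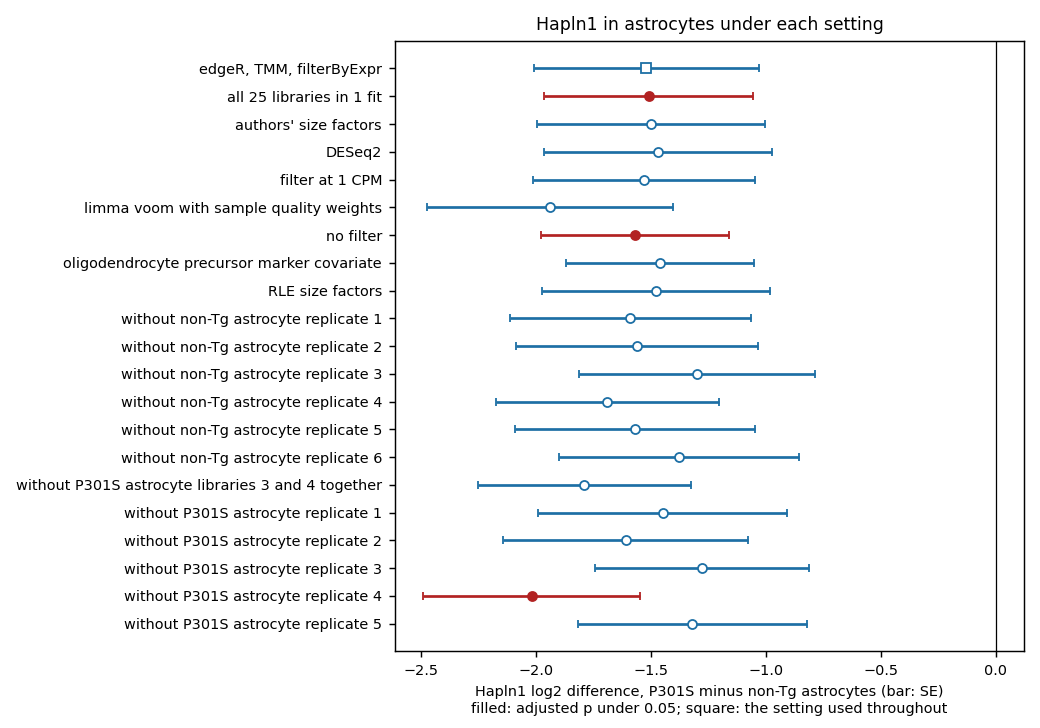
Log2 difference of Hapln1 (P301S minus non-Tg astrocytes, horizontal axis) with its SE under each setting; filled points passed an adjusted p of 0.05 and the square is the setting used throughout. All points lie left of 0, from -2.02 to -1.28, and 3 are filled.

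The tenascins had genotype differences of opposite sign in astrocytes, and neither passed the test. Tnc had 164, 52.5, 154, 27.4 and 42.3 CPM in P301S libraries 1 to 5 and ran from 77.4 through 137 to 281 CPM in non-Tg ones. Libraries 2, 4 and 5 lay below the whole non-Tg range and libraries 1 and 3 above the non-Tg median. The difference was 1.67-fold (log2 -0.74, SE 0.43, adjusted p = 0.458). With the precursor marker covariate it was -1.34 (adjusted p = 0.0639). For Tnr, P301S libraries 1, 2 and 4 lay above the non-Tg range and 3 and 5 within it, with a mean of 171 ± 76.4 against 122 ± 46.3 CPM (log2 0.5, SE 0.34, adjusted p = 0.53).

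None of the 5 lectican and membrane proteoglycan genes tested in astrocytes passed between genotypes. Ptprz1 was at 2426 ± 206 CPM in P301S and 2219 ± 502 in non-Tg astrocytes (log2 0.16, SE 0.18, adjusted p = 0.732), and Vcan at 205 ± 42.7 and 212 ± 73.4 (log2 -0.02, SE 0.28, adjusted p = 0.988). Bcan had 1151 and 1158 CPM in P301S libraries 2 and 3 and 539.6 to 649 in the others, against 487 to 790.5 in non-Tg, so its mean of 825 ± 304 CPM rested on those libraries (log2 0.34, SE 0.24, adjusted p = 0.548). Cspg5 had 297, 307 and 325 CPM in P301S libraries 3 to 5 and 174 and 176 in the others, against 157 to 239 in non-Tg (log2 0.43, SE 0.26, adjusted p = 0.486). Ncan was at 864 ± 195 against 1049 ± 182 CPM (log2 -0.25, SE 0.2, adjusted p = 0.616). Hapln4 held 30 counts in all in the 5 P301S libraries and 176 in the 6 non-Tg ones, of which library 2 alone had 100, and like Acan it did not pass the filter of this comparison.

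Within neurons, no gene of the set passed the test between P301S and non-Tg either. Of the 8 genes tested 0 were called by edgeR, 0 by DESeq2 and 0 by limma voom, and 0.00913% of the 10951 genes tested were called by edgeR. At an unadjusted p under 0.05 there were 2 of 8, Hapln4 and Vcan, against 7.7% of all genes. Ranges overlapped for 8 of 8, and 0.228% of all genes had ranges that did not. The median log2 difference of the 8 was 0.2, against -0.02 over all genes.

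Hapln4 ran from 10.7 through 13.7 to 19.1 CPM in P301S neurons and from 1.08 through 8.84 to 11.1 CPM in non-Tg neurons. The means were 14.0 ± 2.8 (n = 6) and 8.18 ± 3.15 CPM (n = 8), 1.68-fold higher in P301S (log2 0.75, SE 0.27, edgeR adjusted p = 0.511), and 6 of 6 P301S libraries lay above the non-Tg mean. The ranges touched only at their ends, P301S library 1 lying at 10.7 CPM. The value 1.08 CPM was that of non-Tg library 5, and without libraries 5 and 8 the log2 difference was 0.58 (adjusted p = 0.224). Beside it, the markers of inhibitory neurons named above summed to 349 ± 50.3 CPM in P301S and 264 ± 56.7 CPM in non-Tg neurons, with a median log2 difference of 0.51 and 0 of 7 called. Their part in the value of Hapln4 was not tested.

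Vcan ran from 76.3 through 87.3 to 136 CPM in P301S neurons against 56.1 through 74.0 to 97.4 CPM in non-Tg neurons (log2 0.38, SE 0.16, adjusted p = 0.623), with 6 of 6 P301S libraries above the non-Tg mean. The log2 difference was 0.28 (adjusted p = 0.441) without non-Tg libraries 5 and 8. Bcan, at 26.3 ± 5.16 against 20.5 ± 8.78 CPM, had a log2 difference of 0.34 (adjusted p = 0.824). All 6 P301S libraries lay above the non-Tg mean, which took in non-Tg library 5 at 3.24 CPM. P301S libraries 2 and 6, at 21.4 and 20.8 CPM, lay below the non-Tg median of 23.2 CPM. Without non-Tg libraries 5 and 8 the log2 difference of Bcan was 0.19 (adjusted p = 0.704). The 15 astrocyte markers summed to 532 ± 102 CPM in P301S and 410.2 ± 124 CPM in non-Tg neurons, with a median log2 difference of 0.57 and 0 of 10 called, and their part in the values of Vcan, Bcan and Ptprz1 in neurons was not tested. Tnr, the leading transcript of neurons, was at 569.7 ± 119.6 and 492 ± 162 CPM (log2 0.2, SE 0.2, adjusted p = 0.847), and without libraries 5 and 8 the difference was 0.03. Ptprz1 (log2 0.2), Hapln1 (0.12), Ncan (0.07) and Cspg5 (-0.19) had adjusted p of 0.836 to 0.957. Hapln1 was tightly held in P301S neurons, from 8.53 to 12.3 CPM, inside the non-Tg range of 2.63 to 17.8 CPM. Tnc held 23 counts in all in P301S and 28 in non-Tg neurons and, like Acan, was not tested.

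**Figure D5:**
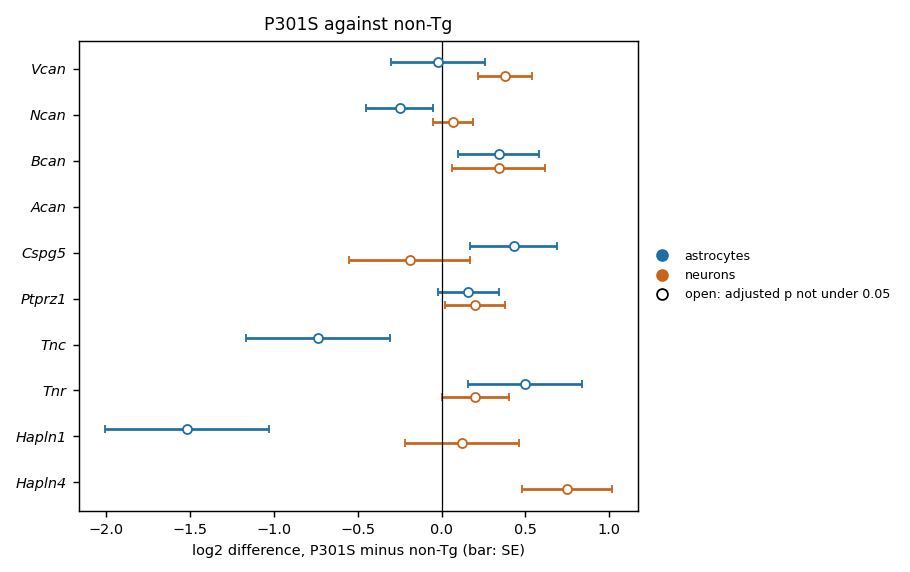
Log2 difference (P301S minus non-Tg, horizontal axis) with its SE for each gene in astrocytes (blue) and neurons (orange); all circles are open because none passed an adjusted p of 0.05. Hapln1 in astrocytes lies farthest from 0, at -1.52, and Hapln4 is the highest point in neurons, at 0.75.

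Whether the genotype difference itself differed between astrocytes and neurons was tested over all 25 libraries. Of 9 genes tested 0 were called by edgeR, 0 by DESeq2 and 0 by limma voom, and 0.394% of the 14197 genes tested were called by edgeR. At an unadjusted p under 0.05 there were 2 of 9, both link proteins, against 14.8% of all genes. The difference (astrocytes minus neurons) was -1.61 on the log2 scale for Hapln1 (SE 0.62, adjusted p = 0.194) and -2.82 for Hapln4 (SE 1.12, adjusted p = 0.216). Without P301S astrocyte library 3 that of Hapln4 was -4.4 (adjusted p = 0.0593), and without non-Tg astrocyte library 2 it was -1.91 (adjusted p = 0.453). The other 7 were at -0.86 for Tnc, -0.38 for Vcan, -0.3 for Ncan, -0.03 for Ptprz1, 0.01 for Bcan, 0.3 for Tnr and 0.62 for Cspg5, with a median over the 9 of -0.3 against 0.09 over all genes. The 2 link proteins thus had the lowest values of the set without passing the test, and that of Hapln4 rests on 30 counts in P301S astrocytes.

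Genes that build, cut and bind the matrix were called in both directions between the cell types. The shares over all genes, for reading these counts, are the 21.8% higher and 25.1% lower in non-Tg neurons and 23.2% and 29.0% in P301S neurons given above. Of the 22 genes that make and sulfate chondroitin sulfate chains 16 were tested, and in non-Tg 5 were higher and 4 lower in neurons (median log2 -0.18), and in P301S 1 higher and 6 lower (median -0.62). The chain-starting enzymes Csgalnact1 (log2 -2.86), Xylt1 (-1.79) and the chain-extending Chsy1 (-2.25) were lower in non-Tg neurons, and the epimerase Dse was higher (4.58), at 4.05 ± 1.75 CPM. Of 7 hyaluronan genes tested out of 11, 1 was higher and 3 lower in each genotype: Cemip, which takes part in hyaluronan breakdown, was higher (4.32 in non-Tg), and the hyaluronidase Hyal1 (-6.79), the receptor Cd44 (-3.46) and Tnfaip6 (-4.89) were lower. The medians of these hyaluronan genes were -0.69 in non-Tg and -0.26 in P301S.

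Among proteases that can cut lecticans, and their inhibitors, 12 of 19 were tested. In non-Tg 3 were higher and 7 lower in neurons (median -1.04), and in P301S 2 higher and 6 lower (median -1.21). Mmp14 (-6.08), Adamts9 (-2.93) and the inhibitor Timp3 (-2.81) were lower and Mmp16 (2.55) higher in non-Tg neurons. The receptors and ligands leaned to neurons: of 20 tested 11 were higher and 5 lower in non-Tg (median 0.98) and 10 higher and 5 lower in P301S (median 0.7). The Ptprz1 ligand pleiotrophin, Ptn (-4.52), was lower in non-Tg neurons along with Egfr (-4.46) and Itgav (-2.47), and the contactin Cntn5 (3.93) was higher. Of 17 other proteoglycan, tenascin and link protein genes tested out of 25, 4 were higher and 10 lower in non-Tg (median -1.36), with Sdc4 (-6.98), Gpc2 (-4.69), Gpc5 (-4.65) and Gpc6 (-4.05) lower. In P301S 5 of these 17 were higher and 10 lower (median -2.03).

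Between genotypes a single gene of these 5 lists was called. Nfasc, the cell adhesion molecule neurofascin, was at 359.6 ± 123 CPM in P301S and 126 ± 33.2 CPM in non-Tg astrocytes (log2 1.54, SE 0.28, adjusted p = 0.00786), 1 of 11 receptors and ligands tested there (median of the 11, -0.34). Oligodendrocytes also express it, and their 10 markers summed to 406 to 1197 CPM in P301S and 215 to 539 CPM in non-Tg astrocytes; their part in the value was not tested. Ptn was at 392 ± 35.4 against 709.6 ± 134 CPM (log2 -0.82, SE 0.21, adjusted p = 0.0806). In astrocytes 0 of 13 chain synthesis genes (median -0.01), 0 of 6 hyaluronan genes (0.32), 0 of 9 protease genes (0.02) and 0 of 15 other proteoglycan genes (0.05) were called, against a median of 0.13 over all genes. The smallest p of each was that of Xylt2 (log2 1.68), Cd44 (1.17), Adamts1 (-1.13) and Bgn (1.07), with adjusted p of 0.29 to 0.493. In neurons 0 of 13, 0 of 4, 0 of 9, 0 of 18 and 0 of 12 were called for chain synthesis, hyaluronan, protease, receptor and other proteoglycan genes, with medians of -0.35, -0.05, -0.24, 0.07 and -0.14. The median over all genes in neurons was -0.02. Over all genes tested, 0.544% were called between genotypes in astrocytes and 0.00913% in neurons. At those shares, lists this short would mostly hold no call, so the zeros are no result about these genes.

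The genes whose pattern over the 25 libraries was most like that of a member were found by Pearson's r of log2 CPM, as a description; the libraries share the split between cell types, which sets most of these values. Ptprz1 was most like Npas3 (r = 0.991) and Sparcl1 (0.99), Bcan like Itpr2 (0.986), Ncan like Pitpnc1 (0.986), Cspg5 like Gnao1 (0.983), Tnc like Frem2 (0.973), Hapln1 like Luzp2 (0.942) and Vcan like Zeb1 (0.93). Tnr was most like Tenm1 (0.944) and Hapln4 like Vcpkmt (0.848). With the mean of each of the 4 groups taken out, the most like gene was Nfkbiz for Hapln4 (r = 0.888), Ash1l for Vcan (0.855), Pcdha11 for Tnr (0.824) and Hepacam for Tnc (0.732).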

How the data were processed

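Per the file headers, each deposited file holds a count per Entrez gene ID (reads that aligned uniquely to its gene model) and an RPKM that the authors adjusted by a size factor per sample. Per the submitters' processing notes GSNAP and GRCm38 were used; for both, version and role are not given in these sources. Library preparation and strand are not given either, so reads of overlapping genes cannot be told apart. The labels' protocol gives a yield of RNA that was lower for astrocytes than for neurons.

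IDs were matched to symbols and RefSeq positions (GRCm38.p6); 5479 IDs had no match, held 3.3% of counts and stayed in the tests. CPM is the count scaled to a library total of 1000000 by TMM factors. Tests were edgeR 4.0.16 (R 4.3.3) quasi-likelihood F tests with a robust fit, TMM scaling and filterByExpr, adjusted by Benjamini-Hochberg over all genes tested and called under 0.05. Genotype was tested within each cell type, and the comparisons across cell types in 1 fit of all 25 libraries. Replicate numbers follow the deposit order and pair nothing. No 2 libraries of a group agreed within sampling noise (lowest chi-square per degree of freedom 1.71). The closest were non-Tg neuron libraries 4 and 7 (1.71) and libraries 1, 3 and 6 (2.0 to 2.25). Other pairs of that group reached 30.59. Whether close libraries share animals is not stated, and all were treated as independent. Alternatives were RLE and the authors' size factors, DESeq2 1.42.0, limma 3.58.1 voom with sample quality weights, other filters, other libraries in the fit, and a covariate for oligodendrocyte precursor markers. Scripts were tested on simulated data.

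All 10 members were to be named in every comparison, those not tested as such; of 5 further lists up to 4 genes with the smallest p were eligible. A gene that the rule for like patterns takes is not reported here. The members, lists, markers and settings were chosen with earlier results of these data known. Promoter windows are from RefSeq; their strand matched GENCODE transcripts for 6 of 8 genes, the 4 shown included, and the check found no match on either strand for Acan and Bcan.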

Additional observations from a re-analysis of the deposited data

Results flagged for a closer look

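In 5 of 40 sets of values (10 genes in 4 groups) the highest or lowest library stood far from the others by Dixon's test. Chance alone gives this in about 1 of 20 sets of normally distributed values. The sets of Acan and Tnc are low counts with zeros, for which that rate does not hold, so no excess is read from the 5. Acan was 0.666 CPM (2 counts) in P301S astrocyte library 5 and 0 in the other 4, where any lone value above 0 is flagged. It was 2.42 CPM (12 counts) in non-Tg neuron library 8 against at most 1.08 in the others. Cspg5 was 30.8 CPM in non-Tg neuron library 5 against 6.8 to 12.4 in the others. Hapln4 was 1.08 CPM (2 counts) in the same library against 7.11 to 11.1 in the others. Tnc was 7.79 CPM (14 counts) in non-Tg neuron library 6 against at most 2.7 in the others. Of these, 3 came from non-Tg neuron libraries 5 and 8, whose identifiers fall in another range.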

How the results depend on the processing

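The cell type calls of the members kept their direction and side of the threshold under all settings run except that, with the precursor marker covariate, Tnr lost its call in P301S (members higher, 1). Between cell types that covariate is itself tied to cell type. Hapln4 in non-Tg, which was not called, turned to 1.0 with limma voom, to 2.71 with that covariate and ran from -0.47 to 0.77 leaving out a library. The genotype call of Hapln1 in astrocytes appeared (members lower, 1) with all 25 libraries in 1 fit and with no filter, and the count was 0 to 1 leaving out a library. Small values changed sign: Vcan in astrocytes was 0.01 with the authors' size factors, 0.02 with DESeq2 and with RLE, 0.17 with voom, and -0.1 to 0.16 leaving out a library. In neurons Cspg5 was 0.09 with voom, 0.19 with the covariate, 0.21 without non-Tg libraries 5 and 8 and -0.4 to 0.24 leaving out a library; Hapln1 was -0.0028 without those 2 and -0.06 to 0.28 leaving out a library. In the difference between cell types Ptprz1 was 0.01 with the authors' factors, 0.03 with DESeq2, 0.14 with voom, 0.04 with RLE, 0.06 without neuron libraries 5 and 8 and -0.16 to 0.13 leaving out a library. Bcan was -0.02 at a 1 CPM filter, -0.08 with voom, -0.03 with no filter, -0.04 with the covariate, -0.1 without P301S astrocyte libraries 3 and 4 and -0.16 to 0.15 leaving out a library. Counts over all genes moved more. In astrocytes 66 genes became 1682 (all 25 libraries), 440 (DESeq2), 124 (voom), 561 (no filter), 108 (covariate), 42 (without libraries 3 and 4) and 27 to 136 leaving out a library. In neurons 1 became 49 (DESeq2), 10 (1 CPM filter), 41 (voom), 17 (no filter), 38 (without libraries 5 and 8) and 0 to 23. For P301S neurons against astrocytes 7420 became 4925 with those groups alone. For the difference between cell types 56 became 425 (DESeq2), 10 (voom), 163 (covariate), 266 (without astrocyte libraries 3 and 4), 12 (without neuron libraries 5 and 8) and 9 to 522. The causes were not tested. No paired analysis was possible because the labels give no replicate numbers and tie no libraries to each other. The values of Acan in every group, and of Tnc and Hapln4 where their counts are near the floor, rest on few counts.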
